A study of Mus musculus with 5 samples.

Results

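Runx3 and H3K4me1 peaks were described in 8 genes of phosphoinositide 3-kinase (PI3K) signaling in IL-2-activated natural killer cells (NKC): Pik3cd, Pik3cg, Pik3r1, Pik3r5, Pik3ap1, Inpp4b, Inpp5d and Akt1. The genes were taken by name, out of 22350 protein-coding genes on the 19 autosomes and chromosome X of GENCODE M1. A peak was counted for a gene when it overlapped the gene or the 20 kb on either side of it by at least 1 bp, on mouse genome build mm9. By this rule 27 of 11676 Runx3 peaks and 142 of 34204 H3K4me1 peaks belonged to the 8 genes. The ChIP-seq libraries were from splenic NKC of ICR mice, enriched by negative selection, NKp46+ by the label, and grown for 7 days in 1000 u/ml of human recombinant IL-2. The paper adds a sort for DX5+ cells after the negative selection. It reports that nearly all cells, though not every cell, were NKp46+ at the end of culture. There were 2 libraries made with an in-house polyclonal anti-Runx3 antibody, 1 made with a monoclonal antibody to H3K4me1 (monomethylated lysine 4 of histone H3) and 2 control libraries made with non-immune rabbit serum (NIS). Every library came from the same kind of IL-2-grown culture, and cells that lack Runx3 or resting cells were not analysed here. The authors called peaks after joining the libraries of each antibody, so each list held a single set of positions without peak height, score or replicate spread, and the number of reads behind a peak could not be read from it.

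PI3K enzymes of class I phosphorylate a membrane lipid to make the messenger PIP3, which recruits the kinase Akt and other proteins to the membrane. Pik3cd and Pik3cg encode the catalytic subunits p110-delta and p110-gamma, which are the leukocyte forms, and in NKC they act in signaling from activating receptors, cytokine receptors and chemokine receptors. The inositol phosphatases Inpp5d (SHIP1) and Inpp4b remove phosphates from these lipids, and SHIP1 binds inhibitory receptors of NKC. Runx3 is a transcription factor of cytotoxic lymphocytes, and H3K4me1 is a histone mark found at enhancers and around active promoters.

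The label of the cells was compared with marker genes of the cell types that a spleen holds. Runx3 peaks lay in or within 20 kb of 6 of 6 NKC marker genes, 3 of 5 T cell, 2 of 4 B cell and 2 of 4 myeloid marker genes, and H3K4me1 peaks in 6 of 6, 4 of 5, 3 of 4 and 3 of 4. By the same rule 41.1% of all coding genes had a Runx3 peak and 51.1% had an H3K4me1 peak. A peak does not measure expression, so these counts did not give the share of other cells.

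Runx3 peaks were found in 6 of the 8 genes, while 41.1% of all coding genes had at least 1. Among the coding genes no shorter than the shortest and no longer than the longest of the 8, the share was 49.7%. Pik3r5 had 7 Runx3 peaks, Pik3ap1 had 6, and Pik3cd, Inpp4b and Inpp5d had 4 each. Pik3r1 had 2, and Pik3cg and Akt1 had none. H3K4me1 peaks were found in 8 of 8 genes, against 51.1% of all coding genes and 58.0% of those in the same range of lengths. Their number ran from 4 in Pik3cg and Inpp4b to 33 in Pik3r5. The median of the 8 genes was 4 Runx3 and 20.5 H3K4me1 peaks per gene, and that of all coding genes was 0 and 1. The 8 genes are long, with a median length of 76593 bp against 15428 bp for all coding genes.

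**Figure D1:**
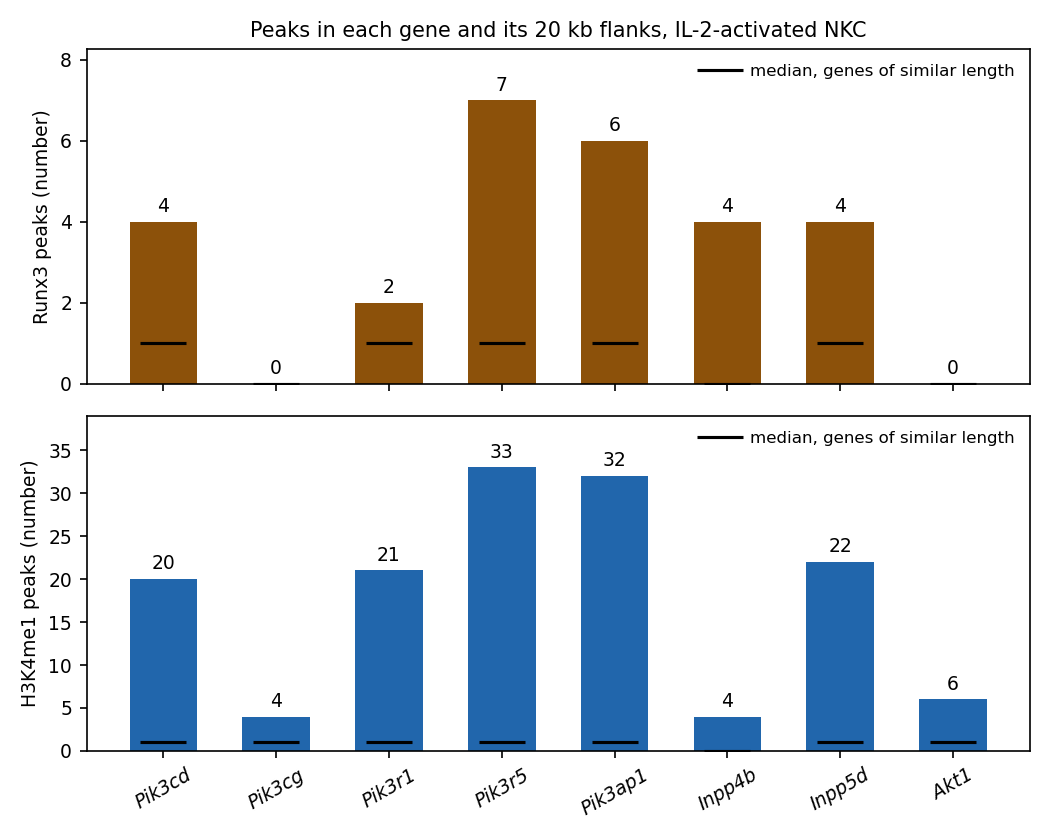
Number of Runx3 peaks (upper panel) and H3K4me1 peaks (lower panel) in each gene and its 20 kb flanks, with bars for the gene and a black line for the median of coding genes of similar length (within a factor of 1.5). Pik3r5 and Pik3ap1 had the most of both, and Pik3cg and Akt1 had H3K4me1 peaks with 0 Runx3 peaks.

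A Runx3 peak overlapped the gene itself in 6 of 8 genes (23.2% of all coding genes, 35.7% in the same range of lengths), and a Runx3 peak overlapped an H3K4me1 peak in 5 of 8 (20.5% and 26.1%). In 3 genes a Runx3 peak was centred within 1 kb of an annotated transcription start site (TSS) of the gene itself (13.3% and 16.3%). For 7 of the 8 genes at least 1 Runx3 peak anywhere on the chromosome had the gene's TSS as its nearest coding TSS (29.8% and 41.1%). The exception was Akt1. Of the 27 Runx3 peaks 21 were centred in an intron, 4 upstream, 1 in a coding exon and 1 downstream of the gene. A total of 23 peaks lay at least in part within the gene or on its start, and 2 peaks were nearer to the TSS of another coding gene.

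**Figure D2:**
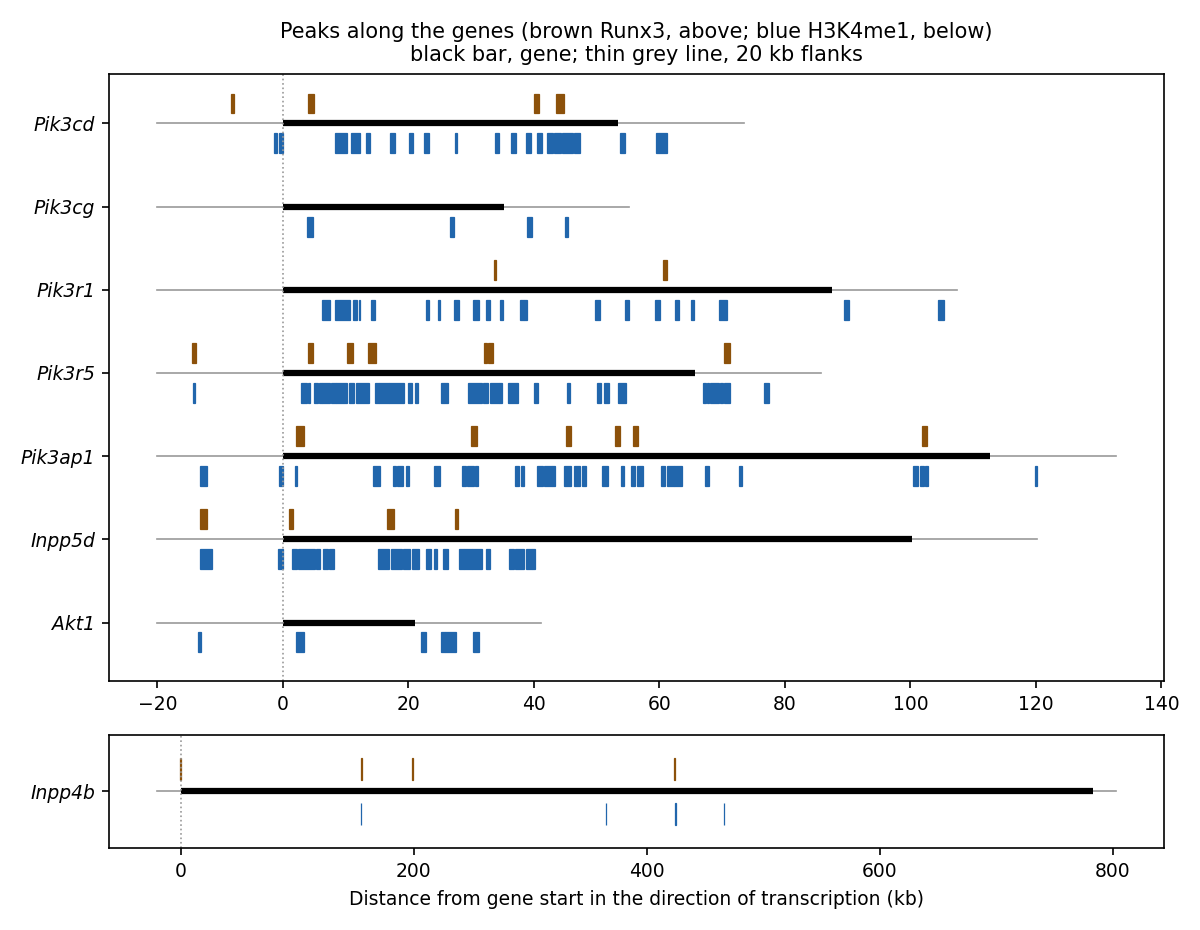
Positions of Runx3 peaks (brown, above each line) and H3K4me1 peaks (blue, below) along the 8 genes, with distance from the gene start in kb on the x axis, transcription running to the right, a black bar for the gene and a thin line for its 20 kb flanks. Inpp4b is drawn on its own scale since it spans 782481 bp, with gaps of 43040 to 224162 bp between Runx3 peaks, while the gaps in the other 5 genes with Runx3 peaks were from 85 to 45285 bp.

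The sequence at the centre of the peak nearest to a TSS shows the RUNX motifs of that stretch only. Each of these peaks held further RUNX motifs outside it. The motif was searched as TGTGGT or TGTGGC or TGCGGT or TGCGGC on either strand, so that ACCACA or GCCACA or ACCGCA or GCCGCA stand for it on the minus strand. The lines give the central 200 bp of the Runx3 peak centred nearest to an annotated TSS of the gene, on the plus strand of mm9, with RUNX motifs in capitals.
Pik3cd chr4:149072141-149072340: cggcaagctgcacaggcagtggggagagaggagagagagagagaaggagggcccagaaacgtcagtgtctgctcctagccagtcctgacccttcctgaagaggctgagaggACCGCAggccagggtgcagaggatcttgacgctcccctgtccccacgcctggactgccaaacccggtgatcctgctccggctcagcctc
Pik3r1 chr13:102477219-102477418: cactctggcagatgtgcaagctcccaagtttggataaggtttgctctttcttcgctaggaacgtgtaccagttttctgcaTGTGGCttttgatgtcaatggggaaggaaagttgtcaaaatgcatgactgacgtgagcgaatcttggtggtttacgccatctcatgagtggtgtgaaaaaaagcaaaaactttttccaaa
Pik3r5 chr11:68249973-68250172: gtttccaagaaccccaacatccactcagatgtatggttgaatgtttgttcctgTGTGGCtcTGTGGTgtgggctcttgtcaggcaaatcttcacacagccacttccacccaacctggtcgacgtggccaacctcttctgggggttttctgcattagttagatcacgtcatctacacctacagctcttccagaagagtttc
Pik3ap1 chr19:41456753-41456952: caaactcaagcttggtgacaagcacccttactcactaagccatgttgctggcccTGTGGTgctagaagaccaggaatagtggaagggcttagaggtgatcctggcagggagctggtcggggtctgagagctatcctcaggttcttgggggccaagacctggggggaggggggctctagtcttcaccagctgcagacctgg
Inpp4b chr8:83865904-83866103: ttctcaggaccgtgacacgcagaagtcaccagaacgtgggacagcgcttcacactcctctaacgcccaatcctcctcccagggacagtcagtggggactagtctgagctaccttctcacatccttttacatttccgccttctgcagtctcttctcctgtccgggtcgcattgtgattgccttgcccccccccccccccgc
Inpp5d chr1:89518086-89518285: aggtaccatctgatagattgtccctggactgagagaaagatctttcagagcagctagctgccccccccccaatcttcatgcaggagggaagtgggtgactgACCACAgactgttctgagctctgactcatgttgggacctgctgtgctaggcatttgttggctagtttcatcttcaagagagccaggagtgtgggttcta
The central 200 bp held 2 RUNX motifs in Pik3r5, 1 in Pik3cd, Pik3r1, Pik3ap1 and Inpp5d, and 0 in Inpp4b, whose 3 motifs lay outside the centre. The Pik3cd motif in the printed part, ACCGCA, reads as the TGCGGT form from the minus strand, and the Pik3r1 motif printed was TGTGGC. The Pik3r5 peak had TGTGGC and TGTGGT side by side on the plus strand.

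Pik3cd, the p110-delta gene, spans chr4:149023277-149076680 on the minus strand and had 4 Runx3 and 20 H3K4me1 peaks. Its window, the gene with both flanks, held 4.28 Runx3 peaks per 100 kb, and 95.9% of 3380 coding genes of similar length had fewer Runx3 peaks. The peak at chr4:149071763-149072717, whose centre is printed above, lay in an intron 421 bp downstream of an annotated TSS and 4440 bp from the outermost start of the gene. It held 4 RUNX motifs, of which 1 was TGTGGC, 2 were TGCGGT and 1 was TGCGGC, and 6 ETS motifs. Its GC content was 56.3% and the nearest H3K4me1 peak was 3454 bp away. The upstream peak at chr4:149084540-149084993 was centred 8086 bp before the gene start, was 454 bp wide and also had no H3K4me1 overlap, with a gap of 6478 bp. The other 2 peaks lay in the 3′ part of the gene and both overlapped H3K4me1. The widest Runx3 peak of the gene, at chr4:149031910-149033151 (1242 bp), was centred in a coding exon 4863 bp downstream of an internal TSS and held 5 RUNX motifs. The peak at chr4:149035898-149036596 lay in an intron 1146 bp downstream of the same internal start and held 1. Both fell in a run of 6 H3K4me1 peaks less than 1 kb apart that covered chr4:149029392-149037863, 8472 bp, and was wider than 99.2% of such runs in the genome. At the gene start there were 2 H3K4me1 peaks within 1 kb and no Runx3 peak. Thus the Runx3 peaks of Pik3cd were split between 2 near or upstream of the 5′ end without H3K4me1 and 2 near the 3′ end with it.

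Pik3cg, the p110-gamma gene, spans chr12:32858338-32893524 on the minus strand and had 0 Runx3 peaks in its window of 75.2 kb, while 48.8% of 4183 coding genes of similar length had at least 1. It had 4 H3K4me1 peaks, more than 77.1% of those genes had. The widest, chr12:32888655-32889745 (1091 bp), was centred in a coding exon, another lay in an intron at chr12:32866193-32866879, and the other 2 lay downstream. No H3K4me1 peak was within 1 kb of the gene start. The nearest Runx3 peak, chr12:32918926-32919644, lay 25402 bp beyond the gene on its upstream side and held 3 RUNX, 1 ETS and 2 AP-1 motifs, without H3K4me1. Runx3 peaks at chr12:32969801-32970368 and chr12:32977099-32978142 also had the Pik3cg TSS as their nearest coding TSS, at distances of 76560 and 84096 bp upstream. The former overlapped H3K4me1 and held 4 RUNX motifs. The distance of 20 kb therefore decided the count of 0, and with 50 kb flanks the gene had 1 Runx3 peak.

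Pik3r1 encodes p85-alpha, a regulatory subunit that stabilises p110 subunits and brings them to phosphorylated receptors. The gene spans chr13:102450716-102538172 on the minus strand and had 2 Runx3 peaks beside 21 H3K4me1 peaks, of which 19 were intronic. Neither Runx3 peak overlapped H3K4me1, yet both lay close to it. The peak at chr13:102477038-102477599 was 496 bp from an H3K4me1 peak and held 2 RUNX motifs, and the peak at chr13:102504142-102504545 was 546 bp away and held 0 RUNX and 5 ETS motifs. These peaks, 562 and 404 bp wide, were 12972 and 33829 bp from the nearest TSS of the gene. Fewer Runx3 peaks were present in 73.0% of the coding genes of similar length. The widest run of H3K4me1 peaks, chr13:102525807-102531979, spanned 6173 bp with 4 peaks and contained no Runx3 peak. A group of 5 more Runx3 peaks, from 307455 to 434302 bp upstream, had the Pik3r1 TSS as the nearest coding TSS, and 2 of them overlapped H3K4me1. That of chr13:102891769-102892899 held 7 RUNX motifs.

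Pik3r5 encodes p101, the regulatory subunit that couples p110-gamma to G protein-coupled receptors. It spans chr11:68245623-68311351 on the plus strand and had the most peaks of the 8 genes, with 7 Runx3 peaks and 33 H3K4me1 peaks. That made 6.62 Runx3 peaks per 100 kb, and 99.6% of coding genes of similar length had fewer. H3K4me1 peaks covered 29.5% of the window, the highest share of the 8 genes. All 7 Runx3 peaks overlapped H3K4me1, and each held from 2 to 6 RUNX motifs, 24 in total. The upstream peak at chr11:68231148-68231821 was centred 14139 bp from the gene start and held 2 RUNX motifs. In the 5′ part of the gene 3 intronic peaks, chr11:68249678-68250466, chr11:68255806-68256754 and chr11:68259113-68260521, lay 4449, 10657 and 14194 bp downstream of the gene start and held 6, 3 and 4 RUNX motifs. The last of these, 1409 bp wide, was the widest of the 27 Runx3 peaks. The 3 peaks lay in one run of 14 H3K4me1 peaks at chr11:68248491-68267221, which at 18731 bp was wider than 99.9% of runs in the genome. Farther into the gene, chr11:68277743-68278174 and chr11:68278260-68279120 were 85 bp apart and held 2 and 3 RUNX motifs, in a second run of 8038 bp with 5 H3K4me1 peaks. The downstream peak at chr11:68315936-68316798 held 4 RUNX motifs and was centred 154 bp upstream of the TSS of Pik3r6, the gene of the alternative p110-gamma subunit p84, and so belonged to both windows. No Runx3 peak of Pik3r5 was within 1 kb of a TSS of Pik3r5 itself.

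Pik3ap1 encodes BCAP, an adaptor that binds p85 and links receptors to PI3K. The gene spans chr19:41346863-41459586 on the minus strand, with 6 Runx3 and 32 H3K4me1 peaks, and 97.8% of coding genes of similar length had fewer Runx3 peaks. All 6 Runx3 peaks were intronic and 5 overlapped H3K4me1. The peak nearest to the gene start, chr19:41456255-41457449, was centred 2734 bp downstream of it, was 1195 bp wide and held 6 RUNX motifs. The peak at chr19:41428581-41429589 was 30501 bp downstream and held 7, the most of the 27 peaks. Its central 200 bp are printed for that reason, in the same form as above, and contain a GCCACA and a TGTGGT.
Pik3ap1 chr19:41428986-41429185: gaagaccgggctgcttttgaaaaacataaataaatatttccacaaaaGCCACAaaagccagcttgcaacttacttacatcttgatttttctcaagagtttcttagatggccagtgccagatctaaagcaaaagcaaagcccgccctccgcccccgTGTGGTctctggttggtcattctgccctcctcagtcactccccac
In the middle of the gene chr19:41403029-41403832, chr19:41405871-41406712 and chr19:41413598-41414479 held 4, 2 and 3 RUNX motifs, and the one at chr19:41405871-41406712 missed an H3K4me1 peak by 185 bp. The peak at the 3′ end, chr19:41356996-41357743, held 0 RUNX and 6 ETS motifs, overlapped H3K4me1 and was nearer to the TSS of Tm9sf3, 18875 bp away, than to the nearest TSS of Pik3ap1, 102191 bp away.

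**Figure D3:**
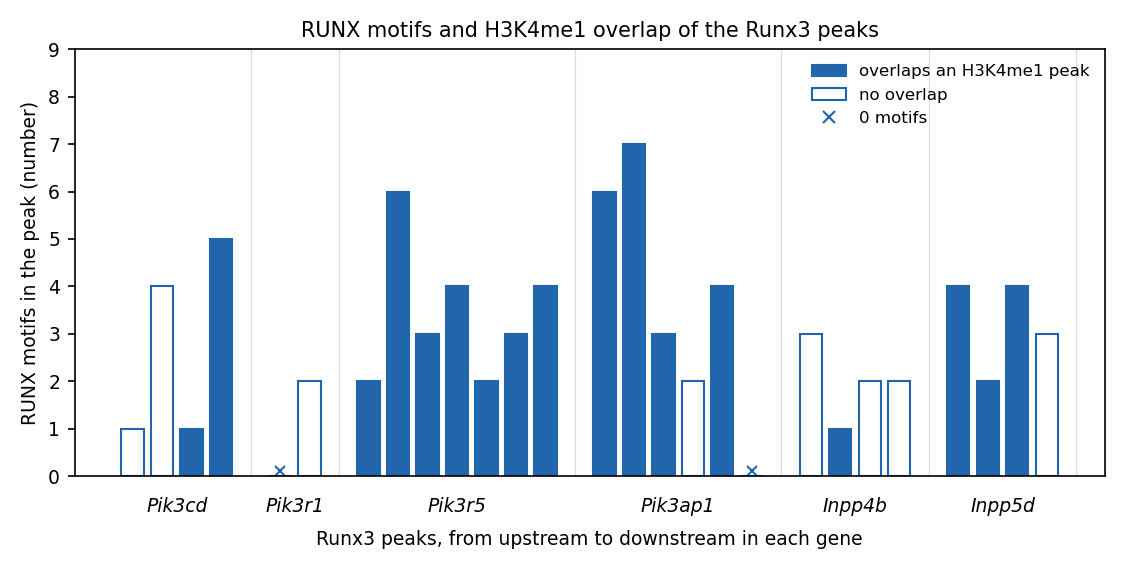
Number of RUNX motifs in each of the 27 Runx3 peaks (bars), ordered within each gene from upstream to downstream, with filled bars for peaks that overlap H3K4me1, open bars for peaks that do not, and crosses for 0 motifs. The count ran from 0, in a Pik3r1 peak without H3K4me1 and a Pik3ap1 peak with it, to 7 in Pik3ap1.

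Inpp5d encodes SHIP1, which removes the 5-phosphate of PIP3 and is restricted largely to blood cells. It spans chr1:89516887-89617082 on the plus strand and had 4 Runx3 and 22 H3K4me1 peaks, and 92.9% of coding genes of similar length had fewer Runx3 peaks. The peak at chr1:89517795-89518575, printed above, was centred 64 bp before an annotated alternative TSS and 1298 bp into the gene. It overlapped H3K4me1 and held 2 RUNX, 4 ETS and 1 AP-1 motifs. The upstream peak, chr1:89503711-89504775, 12644 bp before the gene start, lay wholly inside an H3K4me1 peak and held 4 RUNX, 7 ETS and 1 AP-1 motifs. The intronic peak at chr1:89533480-89534591, 1112 bp wide, was the widest of the gene and overlapped a pair of H3K4me1 peaks, with 4 RUNX, 5 ETS and 1 AP-1 motifs. The peak at chr1:89544271-89544824 missed H3K4me1 by 45 bp and held 3 RUNX and 0 ETS motifs. AP-1 motifs occurred in 5 of the 27 peaks, and 3 of the 5 were in Inpp5d. The widest H3K4me1 peak in the 8 genes, chr1:89519267-89522056 (2790 bp), was in the first part of Inpp5d, within a run of 6670 bp that was wider than 98.5% of runs in the genome. All 4 Runx3 peaks lay within 41114 bp, from the upstream flank to the first part of the gene.

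Inpp4b, the gene of the lipid phosphatase that removes the 4-phosphate of the SHIP1 product, spans chr8:83866455-84648935 on the plus strand. It had 4 Runx3 and 4 H3K4me1 peaks, which was 0.486 of each per 100 kb, the lowest density of the 6 genes with Runx3 peaks. Of 151 coding genes of similar length 90.1% had fewer Runx3 peaks, and of all coding genes 96.8% had fewer. The peak at chr8:83865447-83866559 covered the gene start, its centre 452 bp before it. It had a GC content of 60.5%, the highest of the 27 peaks, 3 RUNX and 5 ETS motifs, and its nearest H3K4me1 peak was 154472 bp away. The intronic peak at chr8:84021290-84021979 overlapped H3K4me1 by 99 bp and held 1 RUNX motif. The intronic peak at chr8:84289826-84290595, 1490 bp before an internal TSS, missed H3K4me1 by 129 bp and held 2 RUNX motifs. The intronic peak at chr8:84065020-84065663 held 2 RUNX motifs and was 43631 bp from H3K4me1. The 4 H3K4me1 peaks, from 357 to 494 bp wide, were all intronic and covered 0.213% of the window. The median was 14.5% in the 8 genes and 0.299% in all coding genes. Fewer H3K4me1 peaks were present in 85.4% of the coding genes of similar length. In Inpp4b, unlike Inpp5d, the Runx3 peak near a TSS was thus at the outermost start of the gene and had no H3K4me1 peak beside it. Of all Runx3 peaks centred within 1 kb of a coding TSS, only 18.7% overlapped H3K4me1, so the lack of overlap alone was not particular to Inpp4b. That share does not tell how often such peaks have no H3K4me1 peak nearby. The gap of 154472 bp was not compared with the gaps of those peaks. Of the 40 bp sequences in the Inpp4b window 89.8% occurred once in the genome, compared with 94.4 to 97.9% in the other 7 genes (the part of this in the counts was not tested). Within 500 bp of the gene start the share was 100% in Inpp4b.

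Akt1, a kinase that PIP3 recruits to the membrane, spans chr12:113892032-113913095 on the minus strand and is the shortest of the 8 genes. It had 0 Runx3 peaks and 6 H3K4me1 peaks, of which 1 lay in the gene, 4 downstream and 1 upstream. The peak in the gene, chr12:113909770-113911021, was intronic and 1252 bp wide. Some of the peaks in the flanks lay in or near other genes, since Adssl1, Siva1 and Zbtb42 also reach into the window. The nearest Runx3 peak, chr12:113940393-113941099, lay 27298 bp from the gene, overlapped H3K4me1 and was nearest to the TSS of AW555464. Unlike for Pik3cg, no Runx3 peak had the Akt1 TSS as its nearest coding TSS. With 50 kb flanks Akt1 had 2 Runx3 peaks.

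Over the 27 Runx3 peaks, 18 overlapped H3K4me1, or 66.7% (95% Wilson interval 47.8 to 81.4), compared with 48.4% of all Runx3 peaks. The interval covers counting error only, and several peaks share a gene, so the number of independent items is smaller. Pik3r5 supplied 7 of the 18 and Pik3ap1 another 5. An H3K4me1 peak lay on or within 1 kb of 85.2% of the 27 peaks (67.5 to 94.1), compared with 61.3% of all Runx3 peaks, which was below the interval. Of the 9 peaks without overlap, 5 had an H3K4me1 peak within 1 kb and 4 did not, and those 4 were in Pik3cd and Inpp4b. Peaks centred farther than 1 kb from any coding TSS overlapped H3K4me1 in 16 of 23 cases (69.6%, 49.1 to 84.4), compared with 57.5% of all such peaks, which lies inside the interval. Those centred within 1 kb overlapped it in 2 of 4 cases, compared with 18.7% of all such peaks. The 2 cases were a peak at a TSS of Inpp5d and the downstream peak of Pik3r5. The latter lay at the TSS of Pik3r6, which is not among the 8 genes. Peaks centred within 1 kb made up 14.8% of the 27 peaks and 23.6% of all Runx3 peaks, and the 66.7% was not adjusted for this. Only 3 of the 18 lay wholly inside an H3K4me1 peak, and 7 overlapped a pair of H3K4me1 peaks. Read from the other side, 24 of the 142 H3K4me1 peaks (16.9%, 11.6 to 23.9) overlapped a Runx3 peak, and 19.9% of all H3K4me1 peaks did. Joined into runs less than 1 kb apart, the 142 peaks gave 76 runs, of which 14 (18.4%) held a Runx3 peak, while 22.6% of the 23008 runs in the genome did. Thus 5 of the 8 genes had 20 or more H3K4me1 peaks (0.864% of all coding genes), while Pik3cg, Inpp4b and Akt1 had 4, 4 and 6. The share of the 142 H3K4me1 peaks with a Runx3 peak was not above that of the genome.

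RUNX motifs were present in 25 of the 27 peaks (92.6%, 76.6 to 97.9), in 96% of all Runx3 peaks and in 69.8% of windows of the same width 10 kb from all Runx3 peaks. In the 48 such windows beside the 27 peaks themselves the share was 79.2% (65.7 to 88.3), which overlaps the interval of the 27 peaks. The 27 peaks held 80 RUNX motifs. The variant TGTGGT made up 48 of them, in 24 peaks, TGTGGC 22 in 15 peaks, TGCGGT 7 in 6 peaks and TGCGGC 3 in 3 peaks. In the central 200 bp, however, a RUNX motif stood in 55.6% of the 27 peaks (37.3 to 72.4), in 77% of all Runx3 peaks and in 29.2% of the flanking windows. The value for all Runx3 peaks was above the interval. The centre was the midpoint of the listed interval, since the lists give no summit, so it need not be where the signal was highest. ETS motifs (AGGAAA or AGGAAG or CGGAAA or CGGAAG) occurred in 92.6% of the 27 peaks and in 91.4% of all Runx3 peaks, against 84.6% of flanking windows, so that most windows of this width held one. AP-1 motifs (TGACTCA and TGAGTCA) occurred in 18.5% (8.18 to 36.7) and 26.2%, with 12.6% in flanking windows. STAT motifs (TTCNNNGAA), of the factor family that IL-2 receptors activate, occurred in 10 of the 27 peaks (37%, 21.5 to 55.8), compared with 21.6% of all Runx3 peaks and 20.4% of flanking windows, but in the central 200 bp in 1 of 27. T-box motifs (AGGTGTGA), of the family of T-bet and Eomes, occurred in 11.1%, 5.51% and 3.54%. All motifs were searched on both strands. The 27 peaks had a median width of 804 bp and all Runx3 peaks one of 704 bp, and the motif shares were not adjusted for width. A match describes letters and is not a measured binding site.

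**Figure D4:**
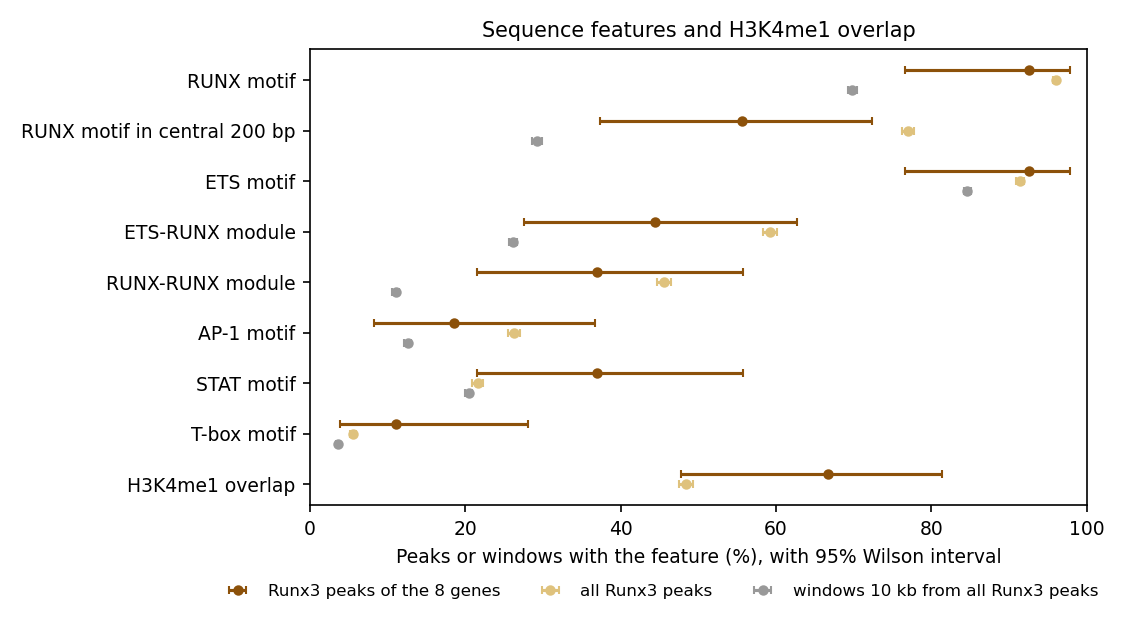
Share of peaks or windows (x axis, %) that contain each motif or module or overlap H3K4me1, for the 27 Runx3 peaks of the 8 genes (brown), all Runx3 peaks (light brown) and windows 10 kb from all Runx3 peaks (grey), with bars for 95% Wilson intervals. The intervals of the 27 peaks contained the value of all Runx3 peaks for every feature drawn except the RUNX motif in the central 200 bp (55.6% and 77%).

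Motifs within 50 bp of each other were counted as modules. An ETS-RUNX module was present in 12 of the 27 peaks (44.4%, 27.6 to 62.7), in 59.2% of all Runx3 peaks and in 26.1% of flanking windows. A RUNX-RUNX module was present in 37%, 45.6% and 11%, and an AP-1-RUNX module in 11.1%, 12.7% and 2.14%. For each kind of module the pair with the smallest gap in the 27 peaks is printed to show its spacing, followed by the closest RUNX pair of the peak at the Inpp4b start. Both motifs are in capitals, with 10 bp on either side. The pairs were chosen after their values were seen.
Pik3r5, ETS and RUNX 1 bp apart, chr11:68231448-68231480: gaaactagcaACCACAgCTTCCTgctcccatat
Pik3r5, AP-1 and RUNX 2 bp apart, chr11:68259580-68259614: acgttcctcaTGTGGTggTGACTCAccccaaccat
Inpp4b, RUNX and RUNX 0 bp apart, chr8:84290050-84290081: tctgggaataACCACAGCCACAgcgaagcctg
Inpp4b, RUNX and RUNX 12 bp apart at the gene start, chr8:83866196-83866239: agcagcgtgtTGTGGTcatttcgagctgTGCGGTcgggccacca
The ETS-RUNX pair was in the upstream peak of Pik3r5, where ACCACA preceded CTTCCT, the reverse strand of AGGAAG. The AP-1-RUNX pair was in the widest peak of that gene. In the intronic Inpp4b peak at chr8:84289826-84290595 ACCACA and GCCACA followed each other directly, and the peak at the start of Inpp4b paired a TGTGGT with a TGCGGT.

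The rest of the pathway was read from a list of 54 genes written from general knowledge of PI3K signaling, which includes the 8. Of the list 29 genes had a Runx3 peak, 40 had an H3K4me1 peak and 22 had a Runx3 peak on H3K4me1. Without the 8 genes, 23 of 46 had a Runx3 peak and 32 of 46 had an H3K4me1 peak, while 41.1 and 51.1% of all coding genes did, and 49.7 and 58.0% of those in the range of lengths of the 8. A Runx3 peak on H3K4me1 was in 17 of the 46, in 20.5% of all coding genes and in 26.1% of those in that range. The medians of the 46 were 0.5 and 2.5 peaks per gene beside 0 and 1 in all coding genes. Pik3r5 and Pik3ap1 had the most Runx3 peaks in the list, followed by Pik3r2 (p85-beta) with 5. Pik3r2 is 8538 bp long, so most of its window was flank, and how many of the 5 lay in the gene itself is not given here. With 4 each, Inpp4a, Inpp5a and Synj2, which encode inositol phosphatases, stood level with Pik3cd, Inpp5d and Inpp4b. Runx3 peaks were in 4 of 5 class I regulatory genes, 8 of 11 genes listed as inositol 5-phosphatases and 2 of 2 lipid 4-phosphatase genes. But such peaks were in 2 of 7 adaptor or inhibitor genes, 2 of 5 class II or III PI3K genes and 0 of 2 Akt phosphatase genes. They were in 2 of 4 class I catalytic genes, where Pik3cb (p110-beta) had 3 and Pik3ca (p110-alpha) had 0, in 4 of 8 genes of Akt and its kinases and in 4 of 8 Akt target genes. With so few genes in a role, no role was compared with the 41.1% of all coding genes. Akt2 had 1 Runx3 peak and 14 H3K4me1 peaks. In all, 25 of the 54 genes had no Runx3 peak.

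**Figure D5:**
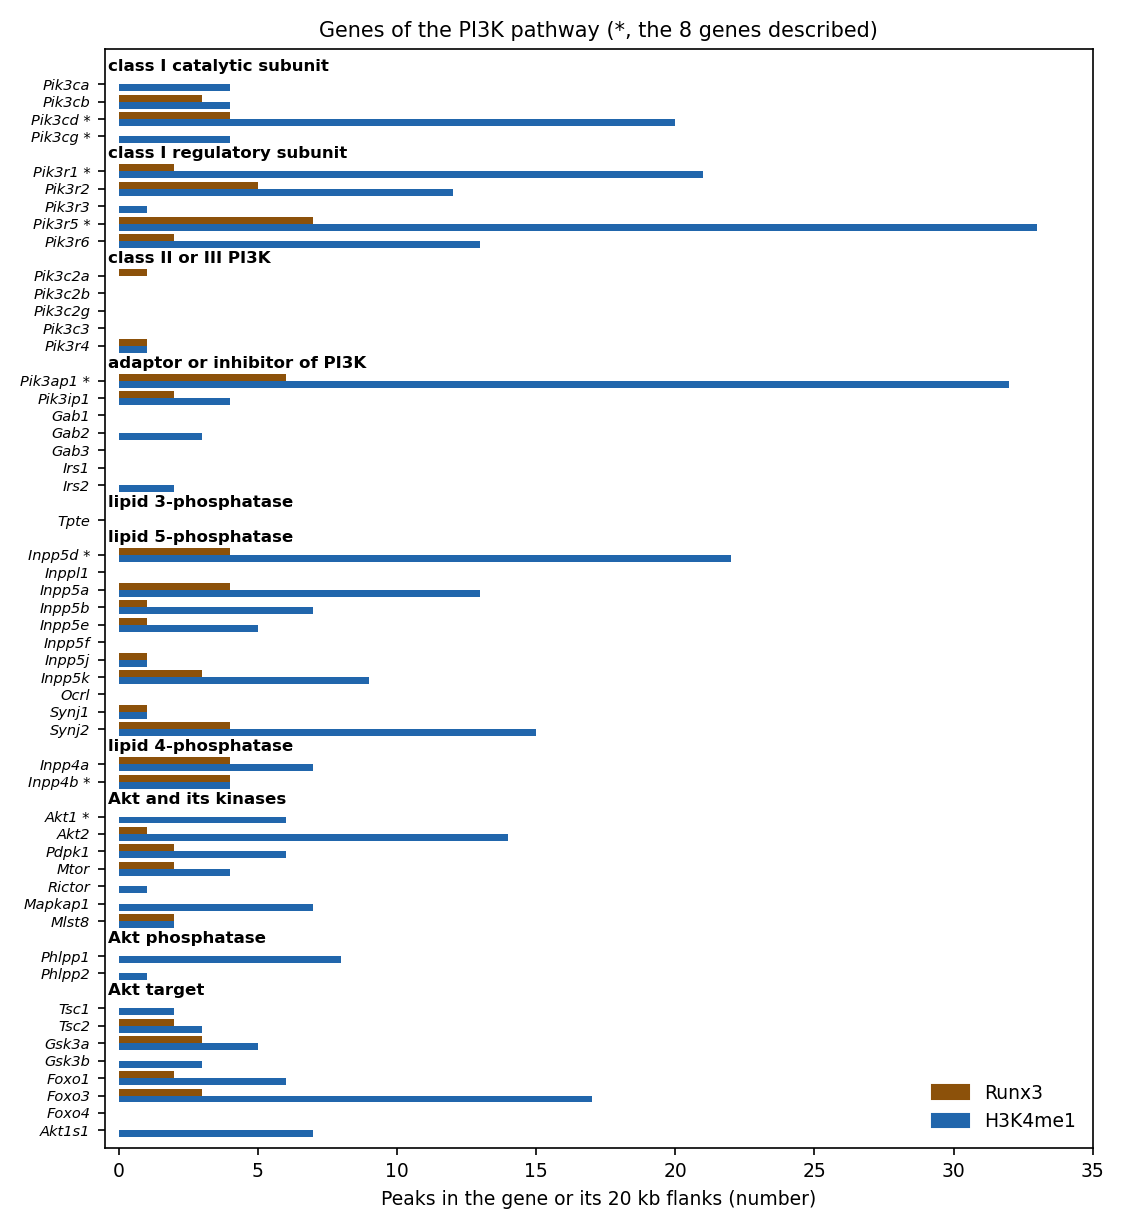
Number of Runx3 peaks (brown) and H3K4me1 peaks (blue) in 52 genes of the pathway list and their 20 kb flanks, grouped by role, with a star on the 8 genes described. Pik3r5, Pik3ap1, Inpp5d, Pik3r1 and Pik3cd had the most H3K4me1 peaks, from 33 down to 20.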

How the data were processed

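Peaks were re-analysed from the deposited lists. Short reads had been mapped to mm9 by the authors with ELAND. Those with a unique position were joined over the libraries of an antibody, and MACS called peaks on them with NIS as control, after the bigger set was brought down to the size of the other. Each deposited line gives a chromosome, a start and an end, without score or count, so no test was made and no replicate error exists. Starts, counted from 0 in the lists, are given from 1. Genes and sequence were those of GENCODE M1 and NCBIM37 (mm9). The 8 genes, the pathway and marker lists and the motifs were chosen with earlier results of these data known. All Runx3 peaks of each gene were named, and sequence was printed for the peak nearest to a TSS and the peak with most RUNX motifs. Comparisons with genes of similar length (within a factor of 1.5), runs of H3K4me1 peaks, distant peaks, 40 bp uniqueness and motif pairs were chosen after values were seen. Overlap needed 1 bp. Each peak was placed by its centre, the midpoint of its start and end. The peak and motif steps were tested on simulated data. Some genes of the pathway list are counted but not reported by name here. Promoter tables of another build were not used here. Calculations used python 3.11.15, numpy 2.4.6, pandas 2.3.3, scipy 1.17.1, pysam 0.24.0 and matplotlib 3.10.9.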

Additional observations from a re-analysis of the deposited data

How the results depend on the processing

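Of 41 alternative values 35 stayed close to the reported one (a count within 1.5 times, a share within the 95% interval) and 6 did not. This tally is no measure of robustness, since some of the 35 could not move. The setting with genes of similar span changed only the background share and kept the count of 6 genes. A count out of 8 genes also cannot exceed 1.5 times 6, so a rise to 8 was scored as close. The 142 H3K4me1 peaks became 79 when only peaks of at least the median width were kept and 76 when peaks less than 1 kb apart were joined. The share of the 27 Runx3 peaks on H3K4me1, 66.7%, became 40.7% when the overlap had to cover at least 50% of the Runx3 peak and 85.2% when H3K4me1 within 1 kb was enough. In the central 200 bp the share with a RUNX motif moved from 92.6 to 55.6% and that with an ETS-RUNX module from 44.4 to 18.5%. The 27 Runx3 peaks became 23, 24 and 32 with flanks of 0, 5 and 50 kb, 18 with wide peaks only and 33 by nearest TSS. The number of the 8 genes with a Runx3 peak was 5 with wide peaks only and 8 with 50 kb flanks, when 27.7 and 55.4% of all coding genes had one. In the pathway list it was 25 and 38 of 54. Since the lists hold no scores, width stood in for a stricter threshold. No paired analysis was possible because Runx3 peaks were called on joined libraries, and for the same reason no Runx3 library could be left out. H3K4me1 had only 1 ChIP library, so its peaks and every overlap with them rest on that library. The paper gives the total of unique reads per antibody in these cells, which was larger for Runx3 than for H3K4me1. Depth behind a single peak, and so the chance of missing one, is unknown.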
